A study of Mus musculus with 12 samples.

Results

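The DNA replication machinery was followed through 12 mouse brain cell cultures as 48 genes. They code for the MCM helicase, GINS and CDC45, the origin recognition complex, the factors that load and start the helicase, the sliding clamp and its loader, the DNA polymerases and primase, the enzymes that join Okazaki fragments, RPA, the enzymes that supply nucleotides, chromatin assembly factor 1, uracil-DNA glycosylase and the transcription factor E2F1. A probe set was taken for a gene where the array's annotation gave it exactly 1 symbol, that of the gene. All 48 genes were measured, by 51 probe sets, out of 19934 genes and 21780 probe sets with 1 symbol. Pcna, Rpa3 and Tk1 had 2 probe sets each, which are counted separately. Whether the 2 sets of a gene share probes was not checked, so they are not taken as independent. Levels are log2 values, so a difference of 1 is a doubling, and array differences can understate those of the RNA.

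DNA replication starts at origins, where the origin recognition complex, CDC6 and CDT1 load a ring of MCM proteins on the DNA in G1 phase. In S phase, kinases turn this ring into an active helicase by adding CDC45 and GINS. RPA covers the unwound strands, polymerase alpha with primase lays down primers, and polymerases delta and epsilon copy the DNA while held by the clamp PCNA. Many of these genes are transcribed most strongly as cells enter S phase, under E2F transcription factors, so that their RNA is widely used as a sign of dividing cells, among them glioma cells and neural stem cells.

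The study asked how glioblastoma cells depend on the cell in which the tumour began. Tumours had been started in adult brains of 3 mouse lines by injecting DF-1 cells that release the virus RCAS-PDGFB-HA, which carries the growth factor PDGFB. The virus enters only cells with its receptor tv-a, and the receptor's promoter differs by line: Gfap in G/tv-a, Nes in N/tv-a and Cnp in C/tv-a. The tumour cultures mGC1_GFAP, mGC2_NES and mGC3_CNP came from these lines in that order, with 3 cultures each (replicates 1, 2 and 3). The comparison cultures, NSC, are neural stem cells grown from the subventricular zone of adult tv-a mice that had no tumour, 1 culture from each line. All 4 groups lacked Arf (Arf-/-), none was treated, and all were grown attached in a stem cell medium that held B-27 and insulin. Tumour origin and mouse line coincide, so they cannot be told apart. In bulk RNA, fewer cells in S phase and less RNA of these genes in each cell cannot be told apart either.

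Markers fitted the labels in part. Egfr, a growth factor receptor of neural stem cells, read 11.76 in NSC and 6.33, 6.36 and 6.32 in the tumour groups, where Sox10 and Pdgfra, markers of oligodendrocyte precursors, read 12.62 and 13.37 in mGC1_GFAP against 8.12 and 9.58 in NSC. Of 8 neural stem cell markers 5 were lower and 0 higher in tumour cultures, of 6 oligodendrocyte precursor markers 4 were higher and 0 lower, and of 5 astrocyte markers 4 were lower, with Aldh1l1 at 11.92 in NSC and 6.26 in mGC1_GFAP. In mGC2_NES minus NSC, 4 of the 6 precursor markers were higher and 1 lower. The mean level over each list of markers of microglia, endothelium and pericytes lay between 6.29 and 6.88 in every array, inside the 5.60 to 7.42 read by 4 spermatid genes taken as absent, and that of 6 neuron markers between 6.86 and 8.06. Of single markers in the first 3 lists, P2ry12 of microglia and Rgs5 of pericytes were lower in tumour cultures and Pecam1 of endothelium and Dcn and Lum of fibroblasts higher, all with group means of 6.76 or less. The highest single value in these lists was 8.43, read by Col1a1, which did not pass. All 51 probe sets of the replication genes read above that range in every array, the lowest value being 7.68. Between any 2 arrays the correlation over all tested probe sets was 0.948 to 0.996. Which part the change of cell type markers had in the differences below was not tested.

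RNA of the replication machinery was lower in the tumour cultures than in NSC. Of 51 probe sets, 43 fell, none rose and 8 did not pass the test (limma, adjusted p under 0.05), and the median difference was -0.42 against 0.01 over all probe sets tested. Of all probe sets, 19.2% were called lower in this comparison. By gene, 41 of 48 fell, and the 7 that did not pass were Gins4, Orc3, Orc4, Orc5, Prim2, Rpa3 and Chaf1b. Rrm2, the small subunit of ribonucleotide reductase, changed most, followed by Orc1 and Gins2. In 28 of the 51 probe sets all 9 tumour arrays lay below all 3 NSC arrays, a pattern found in 14.3% of all probe sets. A fit that treated the 9 tumour arrays as 1 group called 26 of the 51. Centring the arrays on housekeeping genes called 35 lower while shifting the median difference of all probe sets from 0.01 to 0.14.

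The fall differed in size between the tumour groups. Against NSC, 47 of 51 probe sets fell in mGC2_NES (median -0.69), where 18.2% of all probe sets were called lower. In mGC3_CNP 38 fell (median -0.38), against 15.5% of all probe sets. In mGC1_GFAP 17 fell (median -0.20), against 15.3% of all. None rose in any of the 3 comparisons, which share the same NSC arrays.

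**Figure D1:**
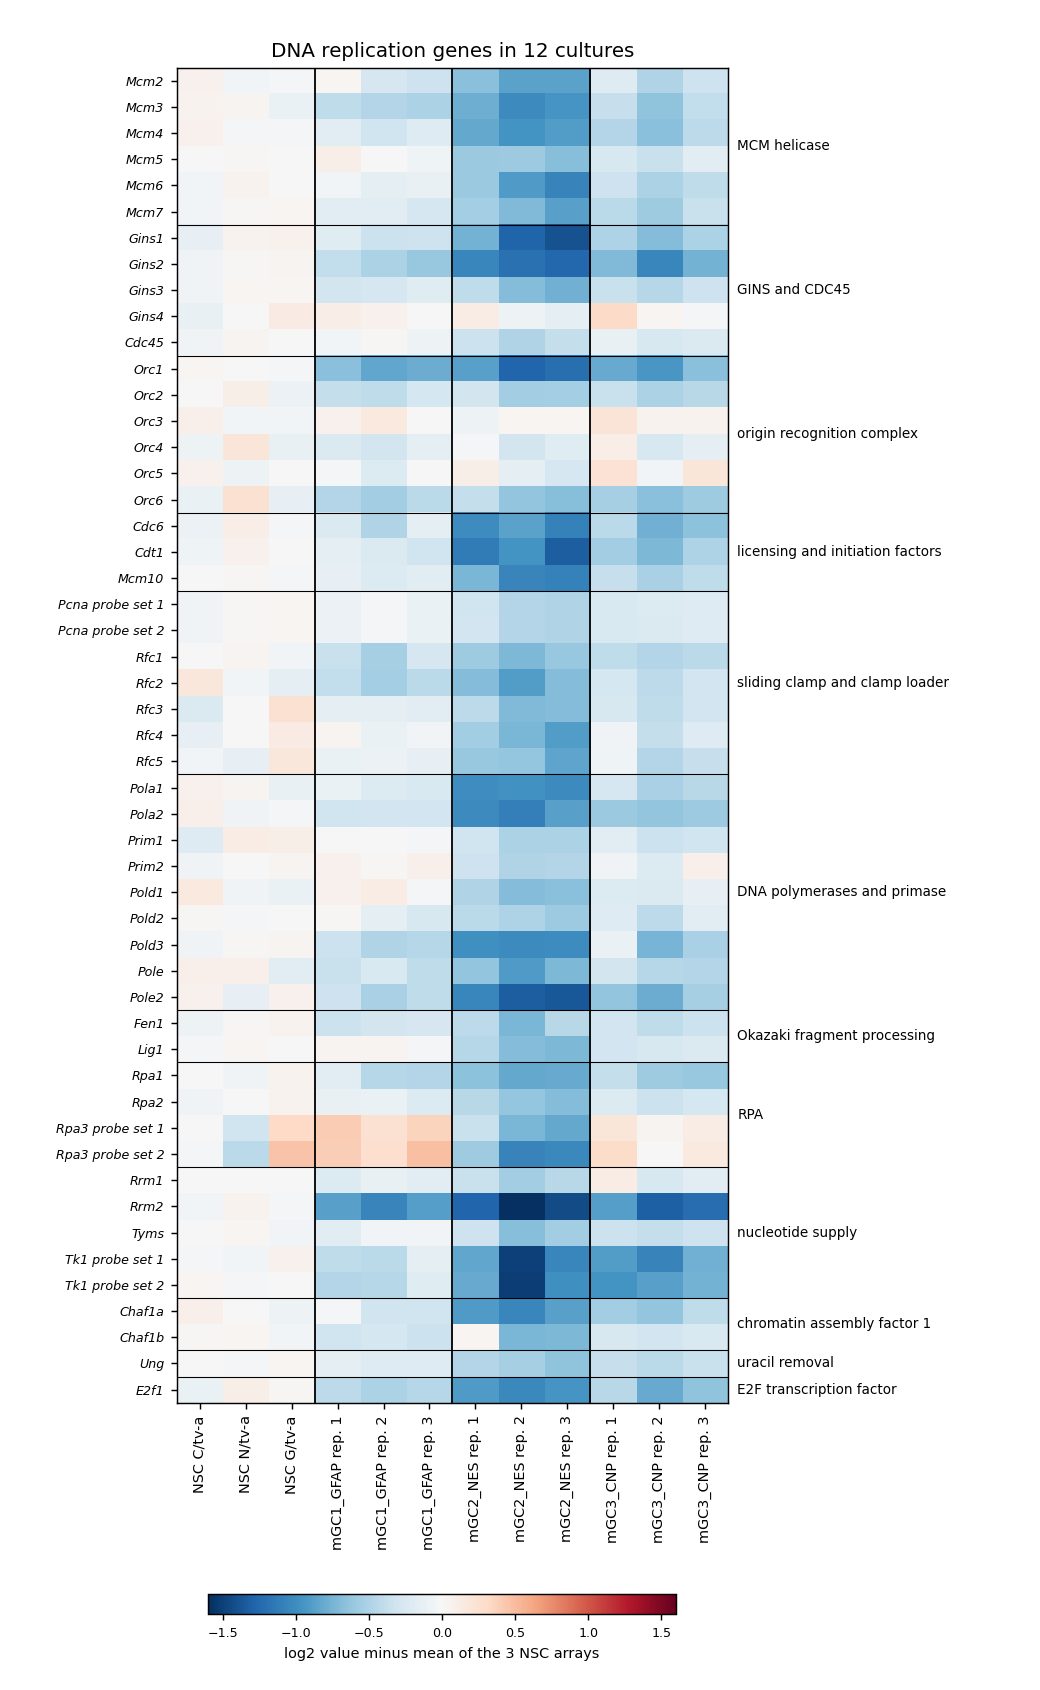
Each row is a probe set and each column a culture, and the colour is the log2 value minus the mean of the 3 NSC arrays for that row (blue lower, red higher). Rows are ordered by complex. The mGC2_NES columns are the bluest, and the rows of Gins4, Orc3 and Orc5 stay pale in all columns.

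**Figure D2:**
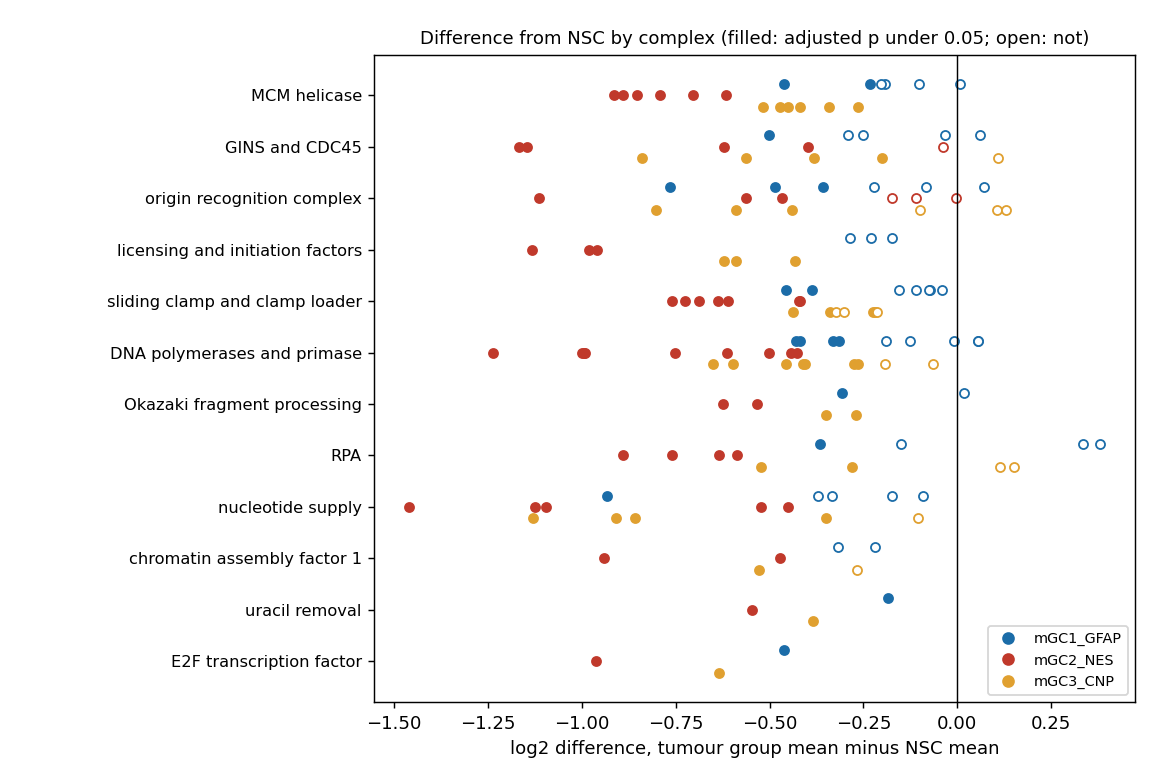
Each point is a probe set, placed by the log2 difference between the mean of a tumour group and the mean of NSC (horizontal axis) and by complex (vertical axis). Filled points had an adjusted p under 0.05 and open points did not. 47 mGC2_NES points, 38 mGC3_CNP points and 17 mGC1_GFAP points are filled, all of them left of 0.

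Compared directly, 35 of 51 probe sets (32 of 48 genes) were higher in mGC1_GFAP than in mGC2_NES and none was lower, with a median difference of 0.48 against -0.01 over all probe sets. Of all probe sets, 3.12% were called higher in mGC1_GFAP. In 44 of 51 probe sets all 3 mGC2_NES arrays lay below all 3 mGC1_GFAP arrays, against 12.8% of all probe sets. The count of 35 fell to 17 without mGC1_GFAP replicate 1, 23 without mGC1_GFAP replicate 3, 19 without mGC2_NES replicate 2 and 20 without mGC2_NES replicate 3, and 16 probe sets passed at adjusted p under 0.05 in each of the other fits on single probe sets. At adjusted p under 0.01 the count was 15. Between mGC1_GFAP and mGC3_CNP no probe set passed with limma (0.487% of all were called either way), although 20 had an unadjusted p under 0.05 and the median difference was 0.17.

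Between mGC2_NES and mGC3_CNP, 3 probe sets were lower in mGC2_NES (Pola1 and both of Rpa3, so 2 genes), against 0.193% of all, while 39 had an unadjusted p under 0.05 and the median difference was -0.33. That count was 0 without mGC2_NES replicate 2 or mGC3_CNP replicate 3, 1 without mGC2_NES replicate 3 and 10 without mGC2_NES replicate 1. Arrays of the same replicate number in these 2 groups correlated weakly in their deviations from group means (0.13 to 0.25), which does not establish a pairing. With the replicate block in the 9-array fit 6 passed, the others being Mcm10, Rfc2 and Pole2. With the block on the 6 arrays of both groups, an alternative chosen after seeing the data, 1 passed (Rpa3 probe set 2). A test for any difference among the 3 tumour groups called 31 of 51, against 4.05% of all probe sets. It called 12 without mGC1_GFAP replicate 1 or 3, 15 without mGC1_GFAP replicate 2, 11 without mGC2_NES replicate 2 or 3, and 16 without mGC3_CNP replicate 3.

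The groups kept mostly 1 order of means. NSC was highest, then mGC1_GFAP, mGC3_CNP and mGC2_NES, in 37 of 51 probe sets. Among tumour groups mGC2_NES was lowest in 49 of 51, against 32.8% of all probe sets, and mGC1_GFAP highest in 44, against 33.5%. Within 2 groups 1 culture stood apart for most of the genes. Replicate 1 of mGC2_NES was the highest of its group for 44 of 51 probe sets, against 38.3% of all probe sets, and replicate 2 of mGC3_CNP the lowest of its group for 43, against 31.1%. In NSC and mGC1_GFAP no culture was highest for more than 23 of the 51 or lowest for more than 23. The median SD of a probe set was 0.06 in NSC, 0.07 in mGC1_GFAP, 0.13 in mGC2_NES and 0.11 in mGC3_CNP. Neural stem cell markers also stood lower in mGC2_NES, with a mean level of 9.50 to 9.77 per array against 10.09 to 10.38 in mGC1_GFAP. Of these 8 markers, 2 (Nes and Nr2e1) were called higher in mGC1_GFAP, and their part in the result was not tested.

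**Figure D3:**
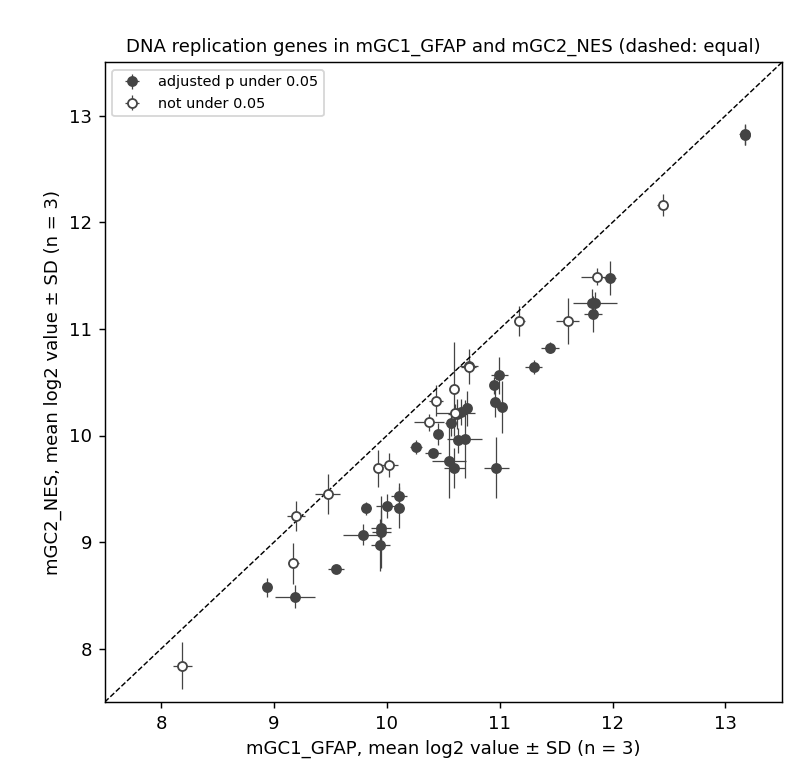
Each point is a probe set, with its mean log2 value in mGC1_GFAP on the horizontal axis and in mGC2_NES on the vertical axis. Bars are the SD over 3 cultures, and the dashed line marks equal levels. The 35 filled points had an adjusted p under 0.05 and lie below the line.

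Promoters of the genes were searched because the genes moved together and E2F1 is itself a member. RefSeq windows of 300 bases (250 before and 50 after a start, build GRCm38.p6) were matched by symbol for 41 of 48 genes, giving 49 windows. Missing were Mcm4, Gins1, Gins2, Gins4, Rfc2, Prim2 and Pole. The words searched for E2F were TTTCCCGC, TTTCGCGC, TTTGCCGC and TTTGGCGC, on both strands, each match counted even where words overlap. At least 1 word stood in 15 of the 49 windows (30.6%), against 2.26% of the 32851 windows in the table and 1 of 22 windows of mitosis genes (4.55%). The genes were Mcm3, Mcm5, Mcm6, Mcm7, Gins3, Orc1, Orc3, Cdc6, Cdt1, Rfc3, Pola1, Pold1, Pold3, Pole2 and Lig1. The other genes with a window, E2f1 among them, had no word there, but a window need not cover a gene's main start. The windows of the replication genes were also richer in G and C, with a median of 61.3% against 52.7% in all windows. In windows of mitosis genes it was 59.8%. The CCAAT box, searched as CCAAT, stood in 53.1% of their windows, 37.4% of all and 81.8% of those of mitosis genes. The CHR element, searched as TTTGAA, stood in 10.2%, 17.9% and 72.7%, and 1 of the 21 E2F matches shared bases with a match of these.

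The following windows are printed 5′ to 3′ on the gene's strand with E2F words in capitals (as their reverse complement where the word is on the other strand), to show genes that fell with words in different places and Orc3, which holds a word and did not pass the test. Mcm6 (chr1:128359656-128359955, minus strand) has 3 words, at -110, -106 and -47 from the start, the first pair overlapping. Mcm5 (chr8:75109259-75109558, plus strand) has an overlapping pair at -153 and -149. Orc1 (chr4:108579204-108579503, plus strand) has a word at -27, Pola1 (chrX:93632106-93632405, minus strand) at -138 and Orc3 (chr4:34614893-34615192, minus strand) at -41.
Mcm6: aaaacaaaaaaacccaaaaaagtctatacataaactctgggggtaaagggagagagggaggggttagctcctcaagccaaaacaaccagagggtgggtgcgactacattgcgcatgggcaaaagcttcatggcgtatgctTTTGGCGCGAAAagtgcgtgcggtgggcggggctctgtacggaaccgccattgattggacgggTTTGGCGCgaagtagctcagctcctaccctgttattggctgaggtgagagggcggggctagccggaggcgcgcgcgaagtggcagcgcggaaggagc
Mcm5: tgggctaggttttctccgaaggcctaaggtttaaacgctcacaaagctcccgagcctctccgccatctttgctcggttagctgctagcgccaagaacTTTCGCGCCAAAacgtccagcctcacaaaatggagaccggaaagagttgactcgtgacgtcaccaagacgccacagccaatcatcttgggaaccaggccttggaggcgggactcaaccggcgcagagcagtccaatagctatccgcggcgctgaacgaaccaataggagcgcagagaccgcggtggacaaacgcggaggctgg
Orc1: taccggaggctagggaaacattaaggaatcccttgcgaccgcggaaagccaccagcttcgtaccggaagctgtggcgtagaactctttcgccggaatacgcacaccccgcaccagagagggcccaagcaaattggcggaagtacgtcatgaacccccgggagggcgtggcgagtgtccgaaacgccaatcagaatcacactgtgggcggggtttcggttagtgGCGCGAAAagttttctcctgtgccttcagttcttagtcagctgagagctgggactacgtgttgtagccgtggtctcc
Pola1: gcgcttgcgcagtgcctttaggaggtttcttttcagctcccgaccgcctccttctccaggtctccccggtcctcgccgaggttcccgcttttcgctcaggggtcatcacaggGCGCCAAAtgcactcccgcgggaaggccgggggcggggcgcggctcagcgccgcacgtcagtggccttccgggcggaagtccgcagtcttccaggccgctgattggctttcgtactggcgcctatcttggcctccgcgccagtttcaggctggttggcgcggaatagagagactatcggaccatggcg
Orc3: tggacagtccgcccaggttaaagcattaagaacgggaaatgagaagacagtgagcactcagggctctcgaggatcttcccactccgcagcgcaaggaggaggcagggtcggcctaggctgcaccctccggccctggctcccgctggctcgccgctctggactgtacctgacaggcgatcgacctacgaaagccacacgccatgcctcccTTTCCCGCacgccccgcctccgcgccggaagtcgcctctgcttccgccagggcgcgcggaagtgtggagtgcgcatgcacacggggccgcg
A match is a description of letters, not of binding. The median difference between mGC1_GFAP and mGC2_NES was 0.62 over the 15 genes with a word and 0.43 over the 29 probe sets of the 26 genes without one, and the ranges overlapped (0.08 to 0.90, and -0.05 to 1.27). For tumour minus NSC the medians were -0.46 with a word and -0.37 without. For mGC2_NES minus NSC they were -0.85 and -0.59, and the ranges overlapped in both. Whether genes with and without a word differ was not tested. Rrm2, which fell most, had no E2F word in its window.

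The 6 MCM genes code for the subunits of the helicase ring. All 6 fell in mGC2_NES and in mGC3_CNP, 2 of 6 (Mcm3 and Mcm4) in mGC1_GFAP, and all 6 were higher in mGC1_GFAP than in mGC2_NES. Their median differences from NSC were -0.82 in mGC2_NES, -0.43 in mGC3_CNP and -0.20 in mGC1_GFAP. In the following, the 3 values of NSC are those of the C/tv-a, N/tv-a and G/tv-a cultures in that order, those of a tumour group are replicates 1 to 3, and differences are given with their standard error (SE). Mcm2 read 12.11, 11.99 and 12.01 in NSC, 12.06, 11.76 and 11.70 in mGC1_GFAP, 11.36, 11.18 and 11.18 in mGC2_NES, and 11.82, 11.56 and 11.70 in mGC3_CNP. Every mGC2_NES and mGC3_CNP array lay below NSC, while mGC1_GFAP replicate 1 lay inside the NSC range. Mcm2 differed from NSC by -0.79 ± 0.10 (adjusted p = 0.000116) in mGC2_NES, or 57.8% of the NSC level. Mcm3 read 11.09, 11.07 and 10.93 in NSC, 10.62, 10.56 and 10.52 in mGC1_GFAP, 10.25, 10.01 and 10.08 in mGC2_NES, and 10.66, 10.38 and 10.63 in mGC3_CNP, so that no tumour array reached NSC. It fell in all 3 tumour groups, by 0.46 in mGC1_GFAP, 0.91 in mGC2_NES and 0.47 in mGC3_CNP. Mcm4 read 11.60, 11.50 and 11.51 in NSC, 11.36, 11.21 and 11.33 in mGC1_GFAP, 10.71, 10.58 and 10.64 in mGC2_NES, and 11.07, 10.87 and 11.11 in mGC3_CNP. Again no tumour array overlapped NSC, and the mGC2_NES arrays lay lowest. Mcm4 differed between mGC1_GFAP and mGC2_NES by 0.66 ± 0.08 (adjusted p = 0.0051).

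Mcm5, whose promoter is printed above, read 11.44, 11.46 and 11.44 in NSC, 11.54, 11.43 and 11.38 in mGC1_GFAP, 10.85, 10.86 and 10.76 in mGC2_NES, and 11.18, 11.08 and 11.27 in mGC3_CNP. The mGC1_GFAP arrays lay on both sides of NSC, and the mean difference there was 0.01 ± 0.07 (adjusted p = 0.967). In mGC2_NES the difference was -0.62 ± 0.07 (adjusted p = 3.15e-05), and all 3 arrays lay below every other culture. Mcm6 read 11.07, 11.18 and 11.11 in NSC, 11.07, 10.98 and 11.01 in mGC1_GFAP, 10.53, 10.21 and 10.06 in mGC2_NES, and 10.78, 10.61 and 10.71 in mGC3_CNP. Its mGC1_GFAP arrays lay just below NSC and its mGC2_NES arrays far below. The difference between these tumour groups was the largest of the ring, 0.75 ± 0.11 (adjusted p = 0.00844), a level 168% of that in mGC2_NES. Mcm7 read 12.13, 12.20 and 12.21 in NSC, 12.01, 12.01 and 11.91 in mGC1_GFAP, 11.64, 11.48 and 11.31 in mGC2_NES, and 11.75, 11.61 and 11.83 in mGC3_CNP. No tumour array reached NSC, but mGC2_NES and mGC3_CNP overlapped. Mcm7 differed from NSC by -0.70 ± 0.09 (adjusted p = 7.95e-05) in mGC2_NES and by -0.45 ± 0.09 (adjusted p = 0.00214) in mGC3_CNP.

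GINS and CDC45 join the MCM ring to make the active helicase. Gins1, Gins2, Gins3 and Cdc45 fell in the tumour cultures, and Gins4 did not pass in any comparison. Gins1, for the PSF1 subunit, read 10.11, 10.30 and 10.31 in NSC, 10.04, 9.89 and 9.91 in mGC1_GFAP, 9.48, 8.96 and 8.85 in mGC2_NES, and 9.74, 9.55 and 9.74 in mGC3_CNP. The tumour arrays all lay below NSC, mGC2_NES lowest, with replicate 1 above the other two of that group. Gins1 in mGC2_NES stood at 45.2% of the NSC level, a difference of -1.15 ± 0.14 (adjusted p = 6.99e-05). Gins2, for PSF2, read 10.45, 10.53 and 10.55 in NSC, 10.11, 9.999 and 9.90 in mGC1_GFAP, 9.46, 9.31 and 9.25 in mGC2_NES, and 9.80, 9.46 and 9.74 in mGC3_CNP. All tumour arrays lay below NSC, and mGC2_NES and mGC3_CNP touched at their ends. It fell in each tumour group, by 0.50, 1.17 and 0.84 in mGC1_GFAP, mGC2_NES and mGC3_CNP. Gins3, for PSF3, read 9.37, 9.45 and 9.45 in NSC, 9.13, 9.15 and 9.22 in mGC1_GFAP, 9.02, 8.72 and 8.66 in mGC2_NES, and 9.07, 8.96 and 9.09 in mGC3_CNP. Its tumour arrays all lay below NSC, and the difference between mGC1_GFAP and mGC2_NES did not pass, at 0.37 ± 0.10 (adjusted p = 0.0555).

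Gins4 codes for SLD5, the fourth subunit of GINS. It read 10.99, 11.11 and 11.24 in NSC, 11.22, 11.18 and 11.12 in mGC1_GFAP, 11.23, 11.03 and 10.97 in mGC2_NES, and 11.42, 11.15 and 11.10 in mGC3_CNP. The 4 groups overlapped throughout, and tumour minus NSC was 0.04 ± 0.08 (adjusted p = 0.744). Without the NSC C/tv-a culture this difference was -0.02. Cdc45 read 10.24, 10.33 and 10.30 in NSC, 10.25, 10.31 and 10.21 in mGC1_GFAP, 9.95, 9.82 and 9.91 in mGC2_NES, and 10.17, 10.04 and 10.06 in mGC3_CNP. The mGC1_GFAP arrays lay in or just under the NSC range, and the mGC2_NES and mGC3_CNP arrays below it. Cdc45 differed from NSC by -0.40 ± 0.06 (adjusted p = 0.000539) in mGC2_NES and was higher in mGC1_GFAP than in mGC2_NES by 0.37 ± 0.07 (adjusted p = 0.0172). Whether Gins4 differs from the other GINS genes was not tested.

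The origin recognition complex marks the sites where replication can start. Orc1, Orc2 and Orc6 fell in every tumour group, and Orc3, Orc4 and Orc5 in none. In this complex no gene passed between tumour groups, and the median difference between mGC1_GFAP and mGC2_NES was 0.08. The largest was that of Orc1, at 0.35 ± 0.12 (adjusted p = 0.12). Orc1, the subunit bound to the complex mainly before S phase, read 8.99, 8.96 and 8.92 in NSC, 8.28, 8.13 and 8.16 in mGC1_GFAP, 8.09, 7.68 and 7.75 in mGC2_NES, and 8.15, 8.02 and 8.28 in mGC3_CNP. No tumour array came near NSC. The differences from NSC were -0.77 ± 0.11 (adjusted p = 0.000213) in mGC1_GFAP, -1.11 ± 0.11 (adjusted p = 9.95e-06) in mGC2_NES and -0.80 ± 0.11 (adjusted p = 0.000144) in mGC3_CNP. Orc2, a core subunit, read 10.80, 10.89 and 10.70 in NSC, 10.42, 10.38 and 10.51 in mGC1_GFAP, 10.49, 10.24 and 10.24 in mGC2_NES, and 10.44, 10.28 and 10.34 in mGC3_CNP. Tumour arrays all lay below NSC and overlapped among themselves, with tumour minus NSC at -0.42 ± 0.07 (adjusted p = 0.00052). Orc6, the smallest subunit, read 11.10, 11.45 and 11.08 in NSC, 10.74, 10.65 and 10.78 in mGC1_GFAP, 10.83, 10.58 and 10.53 in mGC2_NES, and 10.68, 10.54 and 10.64 in mGC3_CNP. The NSC N/tv-a culture stood above the other 2, and all tumour arrays lay below. Orc6 gave -0.55 ± 0.09 (adjusted p = 0.000462) for tumour minus NSC, and the 3 tumour groups overlapped.

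The remaining subunits, which form the body of the complex, showed no such gap. Orc3 read 10.73, 10.61 and 10.61 in NSC, 10.72, 10.81 and 10.64 in mGC1_GFAP, 10.57, 10.69 and 10.69 in mGC2_NES, and 10.86, 10.71 and 10.71 in mGC3_CNP. Tumour and NSC arrays overlapped, at 0.06 ± 0.06 (adjusted p = 0.509). Orc4 read 9.34, 9.61 and 9.29 in NSC, 9.19, 9.12 and 9.28 in mGC1_GFAP, 9.39, 9.12 and 9.22 in mGC2_NES, and 9.52, 9.16 and 9.26 in mGC3_CNP. Most tumour arrays lay below NSC but mGC2_NES replicate 1 and mGC3_CNP replicate 1 did not, and the difference was -0.16 ± 0.09 (adjusted p = 0.21). Orc5 read 9.63, 9.48 and 9.57 in NSC, 9.53, 9.34 and 9.55 in mGC1_GFAP, 9.66, 9.40 and 9.29 in mGC2_NES, and 9.79, 9.52 and 9.75 in mGC3_CNP. Its groups overlapped too, at -0.02 ± 0.09 (adjusted p = 0.888), a difference that was 0.11 when arrays were centred on housekeeping genes.

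Of the factors that load and start the helicase, Cdc6, Cdt1 and Mcm10 all fell in mGC2_NES and mGC3_CNP, none passed in mGC1_GFAP, and all 3 were higher in mGC1_GFAP than in mGC2_NES. Cdc6, an ATPase that loads the MCM ring, read 9.38, 9.58 and 9.46 in NSC, 9.24, 8.99 and 9.33 in mGC1_GFAP, 8.47, 8.61 and 8.39 in mGC2_NES, and 9.04, 8.70 and 8.81 in mGC3_CNP. Its mGC2_NES arrays were lowest, at 50.7% of the NSC level. Cdt1, which brings the MCM ring to the origin, read 10.76, 10.89 and 10.83 in NSC, 10.69, 10.60 and 10.50 in mGC1_GFAP, 9.71, 9.87 and 9.50 in mGC2_NES, and 10.27, 10.11 and 10.34 in mGC3_CNP. The 4 groups did not overlap, in the order NSC, mGC1_GFAP, mGC3_CNP, mGC2_NES. Cdt1 was higher in mGC1_GFAP than in mGC2_NES by 0.90 ± 0.10 (adjusted p = 0.00371), a level 187% of that in mGC2_NES. Mcm10, needed to fire the loaded helicase, read 10.28, 10.30 and 10.27 in NSC, 10.15, 10.07 and 10.10 in mGC1_GFAP, 9.55, 9.22 and 9.20 in mGC2_NES, and 9.91, 9.77 and 9.87 in mGC3_CNP. It kept the same order with no overlap. Mcm10 differed from NSC by -0.96 ± 0.09 (adjusted p = 7.69e-06) in mGC2_NES, against -0.17 ± 0.09 (adjusted p = 0.182) in mGC1_GFAP.

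**Figure D4:**
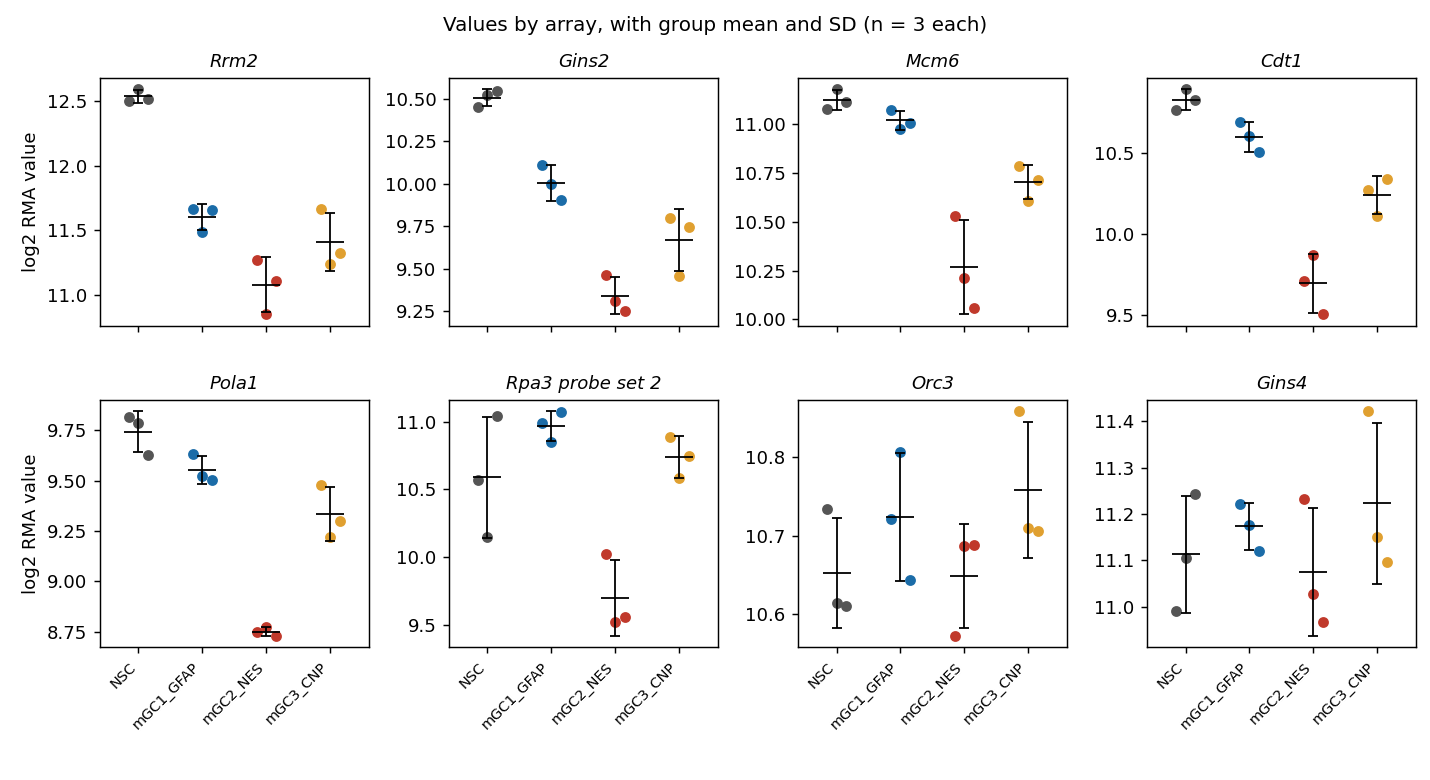
Each dot is 1 culture, the horizontal bar the group mean and the whisker the SD (n = 3), on a log2 axis that differs between panels and does not start at 0. Rrm2, Gins2, Mcm6, Cdt1 and Pola1 are lowest in mGC2_NES. Rpa3 is lowest in mGC2_NES too, and the groups of Orc3 and Gins4 overlap.

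PCNA is the ring that holds polymerases on DNA, and the RFC complex opens and closes it. Tumour minus NSC was called lower for all 6 genes, and in mGC2_NES all 6 fell. The 2 probe sets of Pcna read nearly the same in each array, and the first is given. Probe set 1 of Pcna read 13.19, 13.26 and 13.28 in NSC, 13.15, 13.23 and 13.14 in mGC1_GFAP, 12.93, 12.77 and 12.76 in mGC2_NES, and 13.003, 13.03 and 13.04 in mGC3_CNP. The mGC1_GFAP arrays overlapped NSC, and mGC3_CNP and then mGC2_NES lay below. Pcna differed from NSC by -0.42 ± 0.06 (adjusted p = 0.000328) in mGC2_NES. Rfc1, the large subunit of the loader, read 10.75, 10.81 and 10.72 in NSC, 10.40, 10.23 and 10.49 in mGC1_GFAP, 10.19, 10.04 and 10.15 in mGC2_NES, and 10.35, 10.29 and 10.33 in mGC3_CNP. All tumour arrays lay below NSC, and the fall was called in each group, from -0.39 in mGC1_GFAP to -0.64 in mGC2_NES. Rfc2, a small subunit as are the next 3, read 10.66, 10.44 and 10.33 in NSC, 10.08, 9.93 and 10.05 in mGC1_GFAP, 9.79, 9.59 and 9.78 in mGC2_NES, and 10.19, 10.06 and 10.17 in mGC3_CNP. It too fell in each group, most in mGC2_NES at -0.76 ± 0.09 (adjusted p = 7.36e-05). Between mGC1_GFAP and mGC2_NES neither passed, with 0.25 ± 0.08 (adjusted p = 0.11) for Rfc1 and 0.30 ± 0.08 (adjusted p = 0.058) for Rfc2.

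Rfc3 read 10.63, 10.86 and 11.11 in NSC, 10.72, 10.72 and 10.69 in mGC1_GFAP, 10.44, 10.15 and 10.17 in mGC2_NES, and 10.61, 10.46 and 10.56 in mGC3_CNP. The NSC cultures were spread widely, and the mGC1_GFAP arrays lay among them. Rfc3 differed from NSC by -0.61 ± 0.12 (adjusted p = 0.00147) in mGC2_NES, and was higher in mGC1_GFAP than in mGC2_NES by 0.46 ± 0.09 (adjusted p = 0.0193). Rfc4 read 11.74, 11.87 and 11.996 in NSC, 11.91, 11.75 and 11.82 in mGC1_GFAP, 11.31, 11.13 and 10.98 in mGC2_NES, and 11.81, 11.48 and 11.66 in mGC3_CNP. Arrays of mGC1_GFAP lay inside the NSC range, those of mGC2_NES below all others. Its difference between these tumour groups was 0.69 ± 0.11 (adjusted p = 0.00985). Rfc5 read 11.88, 11.80 and 12.11 in NSC, 11.82, 11.84 and 11.80 in mGC1_GFAP, 11.33, 11.31 and 11.09 in mGC2_NES, and 11.86, 11.46 and 11.55 in mGC3_CNP. The arrays followed the same pattern, with mGC3_CNP replicate 1 inside the NSC range. Rfc5 differed between mGC1_GFAP and mGC2_NES by 0.58 ± 0.11 (adjusted p = 0.0179). For Rfc3, Rfc4 and Rfc5 mGC3_CNP minus NSC did not pass, at -0.32, -0.21 and -0.30.

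Polymerase alpha and primase make the primers from which each DNA strand is extended. All 4 of their genes were higher in mGC1_GFAP than in mGC2_NES. Pola1, the catalytic subunit, read 9.82, 9.78 and 9.63 in NSC, 9.63, 9.52 and 9.50 in mGC1_GFAP, 8.75, 8.77 and 8.73 in mGC2_NES, and 9.48, 9.22 and 9.30 in mGC3_CNP. The mGC2_NES arrays lay close together and far below all others. In Pola1, mGC2_NES minus NSC was -0.99 ± 0.08 (adjusted p = 2.88e-06) and mGC2_NES minus mGC3_CNP -0.58 ± 0.08 (adjusted p = 0.0158). Pola2, its accessory subunit, read 11.03, 10.89 and 10.92 in NSC, 10.62, 10.64 and 10.63 in mGC1_GFAP, 9.93, 9.85 and 10.08 in mGC2_NES, and 10.36, 10.31 and 10.37 in mGC3_CNP. The 4 groups did not overlap, and each tumour group fell, to 80.4%, 50.3% and 66% of the NSC level in mGC1_GFAP, mGC2_NES and mGC3_CNP. Prim1, the catalytic primase subunit, read 10.26, 10.58 and 10.55 in NSC, 10.46, 10.46 and 10.43 in mGC1_GFAP, 10.14, 9.96 and 9.96 in mGC2_NES, and 10.29, 10.12 and 10.15 in mGC3_CNP. The mGC1_GFAP arrays lay inside the NSC range and the mGC2_NES arrays below it, a difference from NSC of -0.44 ± 0.09 (adjusted p = 0.00286). Prim2, the large primase subunit, read 10.84, 10.91 and 10.94 in NSC, 10.97, 10.91 and 10.98 in mGC1_GFAP, 10.56, 10.42 and 10.43 in mGC2_NES, and 10.84, 10.68 and 10.98 in mGC3_CNP. Only the mGC2_NES arrays all lay below NSC. Tumour minus NSC did not pass for Prim2, at -0.14 ± 0.07 (adjusted p = 0.111), while mGC1_GFAP minus mGC2_NES was 0.48 ± 0.09 (adjusted p = 0.0145).

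Polymerase delta copies mainly the lagging strand and polymerase epsilon the leading strand. All 5 of their genes among the members fell in mGC2_NES. Pold4, a delta subunit outside the members, rose there and is described with other replisome genes below. Pold1, the catalytic subunit of delta, read 10.21, 9.99 and 9.95 in NSC, 10.12, 10.16 and 10.03 in mGC1_GFAP, 9.57, 9.36 and 9.37 in mGC2_NES, and 9.83, 9.82 and 9.92 in mGC3_CNP. Arrays of mGC1_GFAP lay among NSC, those of mGC3_CNP just below and those of mGC2_NES lowest. Pold1 differed between mGC1_GFAP and mGC2_NES by 0.67 ± 0.08 (adjusted p = 0.00371). Pold2, an accessory subunit of delta, read 12.02, 11.96 and 11.996 in NSC, 12.01, 11.85 and 11.73 in mGC1_GFAP, 11.57, 11.50 and 11.41 in mGC2_NES, and 11.79, 11.57 and 11.83 in mGC3_CNP. Its tumour arrays lay below NSC except mGC1_GFAP replicate 1, and the difference between mGC1_GFAP and mGC2_NES did not pass, at 0.38 ± 0.10 (adjusted p = 0.0548). Pold3, another accessory subunit, read 10.78, 10.86 and 10.88 in NSC, 10.49, 10.36 and 10.38 in mGC1_GFAP, 9.86, 9.82 and 9.84 in mGC2_NES, and 10.73, 10.09 and 10.32 in mGC3_CNP. The mGC2_NES arrays lay close together and the mGC3_CNP arrays were spread widely. Pold3 stood at 50% of the NSC level in mGC2_NES. Pole, the catalytic subunit of epsilon, read 11.04, 11.03 and 10.79 in NSC, 10.60, 10.72 and 10.55 in mGC1_GFAP, 10.32, 10.04 and 10.24 in mGC2_NES, and 10.66, 10.50 and 10.48 in mGC3_CNP. Every tumour array lay below NSC, and it fell in each group, most in mGC2_NES at -0.75 ± 0.10 (adjusted p = 9.63e-05). Pole2, the second subunit of epsilon, read 10.43, 10.23 and 10.44 in NSC, 10.03, 9.85 and 9.96 in mGC1_GFAP, 9.32, 9.05 and 9.01 in mGC2_NES, and 9.73, 9.58 and 9.83 in mGC3_CNP. The 4 groups did not overlap. Pole2 in mGC2_NES reached 42.4% of the NSC level, at -1.24 ± 0.10 (adjusted p = 3.42e-06).

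FEN1 trims the flaps between Okazaki fragments and LIG1 seals the nicks. Fen1 read 10.15, 10.24 and 10.29 in NSC, 9.88, 9.93 and 9.95 in mGC1_GFAP, 9.80, 9.49 and 9.79 in mGC2_NES, and 9.92, 9.82 and 9.89 in mGC3_CNP. All tumour arrays lay below NSC, mGC2_NES replicate 2 lowest, and it fell in each tumour group, with tumour minus NSC at -0.40 ± 0.07 (adjusted p = 0.000798). Lig1 read 10.90, 10.97 and 10.94 in NSC, 10.98, 10.98 and 10.91 in mGC1_GFAP, 10.48, 10.24 and 10.22 in mGC2_NES, and 10.62, 10.68 and 10.70 in mGC3_CNP. The mGC1_GFAP arrays lay in or just above the NSC range, at 0.02 ± 0.07 (adjusted p = 0.894). Its mGC2_NES arrays lay lowest, and mGC1_GFAP minus mGC2_NES was 0.64 ± 0.08 (adjusted p = 0.00484) for Lig1 against 0.23 ± 0.09 (adjusted p = 0.182) for Fen1. Whether both genes differ in this was not tested.

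RPA, the complex that coats single-stranded DNA, has a large, a middle and a small subunit. Rpa1, the large one, read 10.97, 10.91 and 11.03 in NSC, 10.81, 10.51 and 10.50 in mGC1_GFAP, 10.31, 10.15 and 10.17 in mGC2_NES, and 10.58, 10.40 and 10.36 in mGC3_CNP. No tumour array reached NSC, and Rpa1 fell in each group, most in mGC2_NES at -0.76 ± 0.10 (adjusted p = 8.13e-05). Rpa2, the middle one, read 10.75, 10.80 and 10.86 in NSC, 10.69, 10.69 and 10.58 in mGC1_GFAP, 10.36, 10.18 and 10.12 in mGC2_NES, and 10.59, 10.46 and 10.53 in mGC3_CNP. The tumour arrays again lay below NSC, and mGC1_GFAP minus mGC2_NES was 0.44 ± 0.08 (adjusted p = 0.016). Rpa3 codes for the small one. Its probe set 1 read 9.62, 9.28 and 9.92 in NSC, 10.01, 9.85 and 9.97 in mGC1_GFAP, 9.25, 8.88 and 8.79 in mGC2_NES, and 9.80, 9.65 and 9.72 in mGC3_CNP. Its probe set 2 read 10.57, 10.15 and 11.05 in NSC, 10.99, 10.85 and 11.07 in mGC1_GFAP, 10.02, 9.52 and 9.55 in mGC2_NES, and 10.89, 10.58 and 10.75 in mGC3_CNP. On both, the NSC cultures were spread widely, the N/tv-a culture being lowest, the mGC1_GFAP arrays lay high and the mGC2_NES arrays lay below every other culture. Rpa3 gave the largest difference of all members between mGC1_GFAP and mGC2_NES, 0.97 ± 0.11 (adjusted p = 0.00403) and 1.27 ± 0.14 (adjusted p = 0.00323). Its mGC2_NES minus mGC3_CNP was -0.75 ± 0.11 (adjusted p = 0.0285) and -1.04 ± 0.14 (adjusted p = 0.0156). Tumour minus NSC was -0.06 ± 0.12 (adjusted p = 0.755) and -0.12 ± 0.16 (adjusted p = 0.636), which turned to 0.07 and 0.02 when arrays were centred on housekeeping genes. The NSC and tumour cultures of the N/tv-a line were thus both the lowest of their kind for Rpa3, with 1 NSC culture per line and no test of that.

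Ribonucleotide reductase, thymidylate synthase and thymidine kinase supply the nucleotides for DNA. Rrm2, the small subunit of the reductase, read 12.50, 12.59 and 12.52 in NSC, 11.67, 11.49 and 11.66 in mGC1_GFAP, 11.27, 10.85 and 11.11 in mGC2_NES, and 11.66, 11.24 and 11.32 in mGC3_CNP. All tumour arrays lay far below NSC, and mGC2_NES and mGC3_CNP overlapped. Rrm2 fell to 52.4% of the NSC level in mGC1_GFAP, 36.3% in mGC2_NES and 45.7% in mGC3_CNP, the last at -1.13 ± 0.12 (adjusted p = 3.54e-05). Rrm1, the large subunit, read 12.61, 12.62 and 12.62 in NSC, 12.40, 12.49 and 12.43 in mGC1_GFAP, 12.26, 12.06 and 12.17 in mGC2_NES, and 12.74, 12.36 and 12.43 in mGC3_CNP. The NSC values lay close together, and mGC3_CNP replicate 1 lay above them. Rrm1 passed in mGC2_NES at -0.45 ± 0.09 (adjusted p = 0.00276) and not in mGC3_CNP, at -0.11 ± 0.09 (adjusted p = 0.468).

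Tyms, which makes thymidine monophosphate, read 11.09, 11.12 and 11.05 in NSC, 10.91, 11.04 and 11.04 in mGC1_GFAP, 10.75, 10.40 and 10.53 in mGC2_NES, and 10.75, 10.70 and 10.76 in mGC3_CNP. The mGC1_GFAP arrays lay close under NSC and those of mGC2_NES and mGC3_CNP, which overlapped, lower, with mGC1_GFAP minus mGC2_NES at 0.43 ± 0.09 (adjusted p = 0.0266). Tk1 codes for the thymidine kinase of dividing cells. Its probe set 1 read 10.86, 10.84 and 10.95 in NSC, 10.47, 10.45 and 10.72 in mGC1_GFAP, 10.05, 9.38 and 9.84 in mGC2_NES, and 9.99, 9.81 and 10.12 in mGC3_CNP. The second probe set of Tk1 read 11.09, 11.02 and 11.07 in NSC, 10.60, 10.60 and 10.87 in mGC1_GFAP, 10.26, 9.56 and 10.08 in mGC2_NES, and 10.11, 10.20 and 10.31 in mGC3_CNP. On both, mGC2_NES replicate 2 was the lowest of all cultures, and mGC2_NES and mGC3_CNP overlapped. In mGC2_NES Tk1 fell by 1.12 ± 0.15 (adjusted p = 0.000124) and 1.10 ± 0.15 (adjusted p = 0.000149), and in mGC3_CNP it fell by 0.91 ± 0.15 (adjusted p = 0.000678) and 0.86 ± 0.15 (adjusted p = 0.001). In mGC1_GFAP its differences of -0.33 and -0.37 did not pass.

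Chromatin assembly factor 1 places histones on new DNA. Chaf1a, its large subunit, read 10.09, 10.02 and 9.93 in NSC, 9.995, 9.69 and 9.69 in mGC1_GFAP, 9.11, 8.96 and 9.14 in mGC2_NES, and 9.45, 9.38 and 9.61 in mGC3_CNP. Replicate 1 of mGC1_GFAP lay inside the NSC range, and mGC2_NES lay below all others. Chaf1a was higher in mGC1_GFAP than in mGC2_NES by 0.72 ± 0.10 (adjusted p = 0.00721). Chaf1b, its middle subunit, read 10.93, 10.93 and 10.86 in NSC, 10.58, 10.63 and 10.56 in mGC1_GFAP, 10.94, 10.17 and 10.19 in mGC2_NES, and 10.65, 10.60 and 10.66 in mGC3_CNP. Here mGC2_NES replicate 1 lay above NSC while the other 2 of its group were the lowest cultures. Tumour minus NSC did not pass for Chaf1b, at -0.35 ± 0.13 (adjusted p = 0.0556). Ung, which removes uracil from DNA, read 9.12, 9.10 and 9.15 in NSC, 8.98, 8.92 and 8.91 in mGC1_GFAP, 8.66, 8.59 and 8.48 in mGC2_NES, and 8.76, 8.69 and 8.77 in mGC3_CNP. The 4 groups did not overlap, and Ung fell in each tumour group, with tumour minus NSC at -0.37 ± 0.05 (adjusted p = 0.000134).

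E2f1, the transcription factor that drives many of these genes at the start of S phase, read 10.17, 10.37 and 10.30 in NSC, 9.86, 9.77 and 9.82 in mGC1_GFAP, 9.37, 9.25 and 9.33 in mGC2_NES, and 9.84, 9.47 and 9.63 in mGC3_CNP. Every tumour array lay below NSC, and mGC2_NES below the rest. E2f1 passed in each tumour group and fell by 0.46 ± 0.09 (adjusted p = 0.00252) in mGC1_GFAP, 0.96 ± 0.09 (adjusted p = 9.72e-06) in mGC2_NES and 0.63 ± 0.09 (adjusted p = 0.000275) in mGC3_CNP. It was higher in mGC1_GFAP than in mGC2_NES by 0.50 ± 0.09 (adjusted p = 0.0169). Of 14 probe sets for 12 other E2F and RB family genes, 10 fell in tumour cultures, 1 rose and 3 did not pass. E2f6 fell by 1.07 ± 0.11 (adjusted p = 1.05e-05), E2f5 by 0.83 ± 0.07 (adjusted p = 3.42e-06) and the dimer partner Tfdp2 by 1.05 ± 0.08 (adjusted p = 1.88e-06). E2f8 fell by 0.61 ± 0.09 (adjusted p = 0.000217), E2f4 by 0.42 ± 0.06 (adjusted p = 0.000138) and E2f2 by 0.37 ± 0.07 (adjusted p = 0.00107). The probe sets of E2f3 gave -0.14 ± 0.08 (adjusted p = 0.207) and -0.24 ± 0.07 (adjusted p = 0.0173), and E2f7 gave -0.15 ± 0.07 (adjusted p = 0.129). Rbl2, the pocket protein p130 of resting cells, rose by 0.39 ± 0.08 (adjusted p = 0.00178). Between mGC1_GFAP and mGC2_NES, 3 of these 14 probe sets passed, all higher in mGC1_GFAP, against 3.12% of all probe sets. They were E2f2, E2f7 and Rbl1, E2f7 with 0.47 ± 0.09 (adjusted p = 0.017).

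Of 13 genes for kinases, cyclins and partners that fire origins, 10 fell in tumour cultures, none rose, and all 13 fell in mGC2_NES. Ccne1, the cyclin E1 of the G1 to S step, fell by 1.10 ± 0.06 (adjusted p = 4.28e-08), with group means of 11.05 in NSC and 10.01, 9.95 and 9.89 in mGC1_GFAP, mGC2_NES and mGC3_CNP. Ccne2, cyclin E2, gave -0.22 ± 0.08 (adjusted p = 0.0536) overall and was higher in mGC1_GFAP than in mGC2_NES by 0.55 ± 0.09 (adjusted p = 0.0106). The kinase Cdc7 fell by 0.43 ± 0.06 (adjusted p = 0.000198) and its activator Dbf4 by 0.47 ± 0.09 (adjusted p = 0.00176). Cdk2 fell by 0.23 ± 0.07 (adjusted p = 0.0141). Cdc25a, a phosphatase that activates CDK2, fell by 0.54 ± 0.07 (adjusted p = 6.8e-05), and Ticrr, which helps load CDC45, by 0.47 ± 0.10 (adjusted p = 0.00372). Gmnn, the inhibitor of CDT1, fell by 0.41 ± 0.11 (adjusted p = 0.00947), but its tumour group means of 7.55, 7.02 and 7.30 lay in or close to the range of genes taken as absent.

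In tumour minus NSC, fork protection and checkpoint genes fell in 8 of 14 probe sets and rose in none (17.6% of all probe sets were called higher), led by Clspn at -0.63 ± 0.05 (adjusted p = 2.65e-06), Rad9a at -0.53 ± 0.10 (adjusted p = 0.000992) and Chek1 at -0.53 ± 0.08 (adjusted p = 0.000161). Against NSC, 8 were lower in mGC2_NES and 6 in mGC3_CNP with none higher, where 18.2% and 15.5% of all probe sets were called lower. In mGC1_GFAP 3 of 14 were lower, near the 15.3% of all called lower, and 1 was higher, against 13.9% of all. That 1 was Dscc1, of a clamp loader for cohesion, which rose by 0.61 ± 0.11 (adjusted p = 0.00102). Of other replisome and nuclease genes 7 of 14 probe sets fell in tumour minus NSC and none rose. The nucleases Dna2 and Exo1 fell by 0.78 ± 0.10 (adjusted p = 6.85e-05) and 0.73 ± 0.06 (adjusted p = 2.77e-06). The probe sets of Top2a, topoisomerase II alpha, disagreed, the 1 called lower reading 5.58 in NSC, below the range of absent genes, and the other giving 0.23 ± 0.09 (adjusted p = 0.0611). In mGC1_GFAP minus NSC this other probe set of Top2a and Tonsl, a fork repair factor, rose, by 0.52 and 0.38, while 3 of the list fell. Both counts, out of 14, are near the 13.9% of all probe sets called higher there and the 15.3% called lower. Pold4, the small subunit of polymerase delta, rose in mGC2_NES by 0.35 and in mGC3_CNP by 0.33, where 16.6% and 14.9% of all probe sets were called higher. These genes were named after their values were seen. In tumour minus NSC, of 16 other genes of nucleotide metabolism 12 fell and 2 rose. Umps and Cad of pyrimidine synthesis and Ppat of purine synthesis fell by 0.97, 0.75 and 0.78. Rrm2b, the reductase subunit made outside S phase, rose by 0.46 ± 0.07 (adjusted p = 0.000284), and the mitochondrial thymidine kinase Tk2 by 0.33 ± 0.07 (adjusted p = 0.00212).

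Of 9 probe sets of other histone chaperones 7 fell and 1 rose in tumour minus NSC. Asf1a, Nasp and Supt16 fell by 0.63, 0.62 and 0.59, while Asf1b rose by 0.39 ± 0.09 (adjusted p = 0.00544). Of 13 base excision repair genes other than Ung 3 rose and 3 fell, against 17.6% of all probe sets called higher and 19.2% called lower, shares near the background, and the median was 0.02. Polb, the repair polymerase beta, rose by 0.46 ± 0.07 (adjusted p = 0.000291), with smaller rises of Smug1 (0.21) and Neil1 (0.18). Apex1, Xrcc1 and Nthl1 fell by 0.54, 0.31 and 0.16. Smug1 and Nthl1 read in or close to the range of absent genes.

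Genes of mitosis were set beside those of replication because both mark dividing cells. Of 24 measured, 1 rose in tumour cultures (Espl1, separase, 0.35 ± 0.11 (adjusted p = 0.0216)), 1 fell (Cdca8, borealin, -0.28 ± 0.09 (adjusted p = 0.037)) and 22 did not pass, with a median of -0.06. In this comparison 17.6% of all probe sets were called higher and 19.2% lower. Per array, the median of the replication genes relative to the NSC mean was -0.16, -0.23 and -0.21 in mGC1_GFAP, -0.56, -0.73 and -0.76 in mGC2_NES and -0.30, -0.46 and -0.35 in mGC3_CNP. The median of the mitosis genes in the same arrays was 0.08, 0.10 and 0.05, then -0.08, -0.58 and -0.34, then 0.21, -0.04 and 0.00. In NSC the replication medians were -0.02, 0.02 and 0.01 and the mitosis medians 0.08, -0.15 and 0.07. The replication median thus lay below the mitosis median in each of the 9 tumour arrays, and in mGC2_NES both lay below 0. It was below the mitosis median in the C/tv-a and G/tv-a cultures of NSC too, and above it in the N/tv-a culture (0.02 against -0.15). Since values are relative to the mean of these same NSC arrays, NSC medians are held near 0. The sizes of the gaps in NSC and tumour arrays were therefore not compared. In mGC2_NES minus NSC 10 of 24 mitosis genes fell, against 18.2% of all probe sets. Between tumour groups 7 of 24 were higher in mGC1_GFAP than in mGC2_NES, against 3.12% of all. Mki67, the proliferation marker Ki-67, gave 0.13 ± 0.12 (adjusted p = 0.457) for tumour minus NSC.

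**Figure D5:**
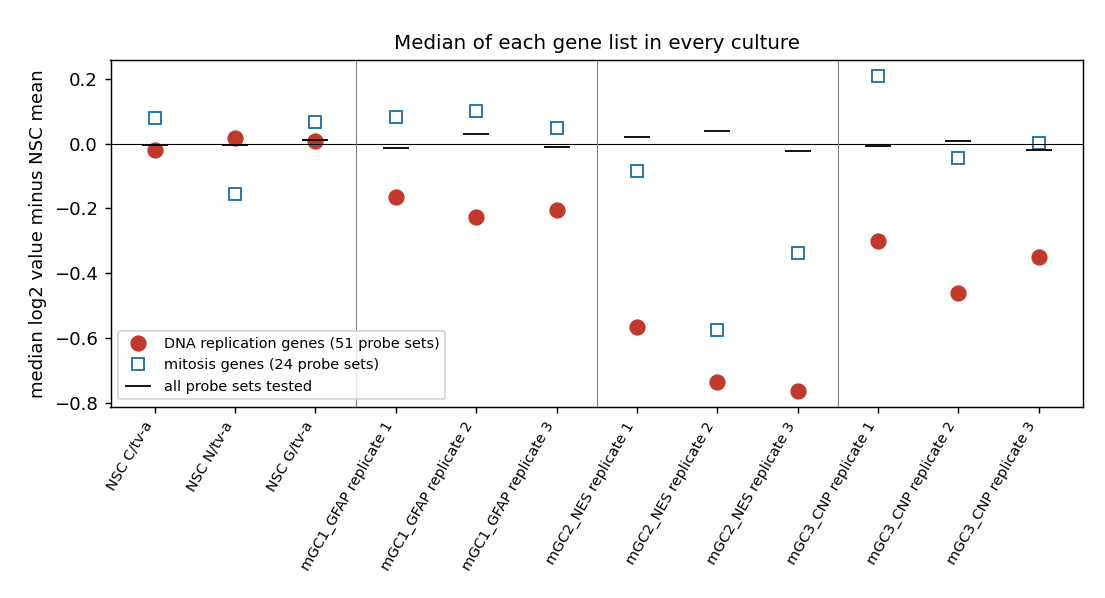
For each culture (horizontal axis) the vertical axis gives the median log2 value minus the NSC mean over 51 probe sets of replication genes (filled circles), 24 of mitosis genes (open squares) and all probe sets tested (dashes). Replication medians lie lowest in mGC2_NES, from -0.76 to -0.56. They lie below the mitosis medians in every tumour culture and in the C/tv-a and G/tv-a cultures of NSC.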

How the data were processed

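RNA of 12 cultures was hybridised to Affymetrix whole-transcript mouse arrays, 1 array per culture, 3 cultures in each of 4 groups taken from the labels. The authors deposited log2 values, 1 per probe set. The submitters' processing notes name RMA and Affymetrix Expression Console. RMA corrects background, gives all arrays 1 distribution and summarises probes, so a change shared by most genes is hidden. The array annotation gave exactly 1 symbol for 21780 of 28270 probe sets, and these were tested without further scaling or filter. Arrays hold no read depth, and their number limits the precision.

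Differences were tested in R 4.3.3 with limma 3.58.1 (lmFit and eBayes). P-values were two-sided and Benjamini-Hochberg adjusted across the 21780 probe sets, and a probe set was called at adjusted p under 0.05. Comparisons with NSC used all 12 arrays in 4 groups, with tumour minus NSC weighting the 3 tumour groups equally. Comparisons of tumour groups, and the F test for any difference, used the 9 tumour arrays. The fit was tested on simulated data. The 3 cultures per tumour group are called independent, but whether they are of separate animals is not stated, and the p-values rest on the spread between cultures. Replicate numbers were checked as pairs through the correlation of deviations from group means. All 3 same-number pairs of mGC2_NES and mGC3_CNP were above 0.1 (0.13 to 0.25), and other group pairs were not all above it. These correlations are small, and mGC1_GFAP replicate 1 with mGC3_CNP replicate 3, of unlike number, gave 0.13 too. The labels state no pairing, and none is established by these values. Members and gene lists were chosen with earlier results of these data known. Values per array were given for up to 3 members of each complex with the smallest p for tumour minus NSC, for members called between tumour groups and, beyond that rule, for the others. From other lists, up to 3 genes per direction with the largest called difference were named, besides the E2f family, Cdk2, Ccne1, Ccne2, Cdc7, Dbf4 and Gmnn. Mki67, Rbl1, Dscc1, Tonsl, Pold4 and marker genes were named after their values were seen. Alternatives tried were other scaling, a filter on low values, array weights, variance priors, blocks, other sets of arrays, averaged probe sets and a threshold of 0.01.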

Additional observations from a re-analysis of the deposited data

Results flagged for a closer look

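The difference from NSC was not the same in all tumour groups. Since the comparisons share the NSC arrays, the difference between 2 of them equals the difference between the tumour groups, which limma tested on the 9 tumour arrays. It passed for 35 probe sets between mGC1_GFAP and mGC2_NES, given here on the log2 scale as mGC1_GFAP minus mGC2_NES. In the MCM helicase the differences were Mcm2 0.60, Mcm3 0.45, Mcm4 0.66, Mcm5 0.62, Mcm6 0.75 and Mcm7 0.50. In GINS and CDC45 they were Gins1 0.85, Gins2 0.66 and Cdc45 0.37. Among factors that load and start the helicase they were Cdc6 0.70, Cdt1 0.90 and Mcm10 0.79. For the clamp and its loader they were Pcna probe set 1 0.35, Pcna probe set 2 0.35, Rfc3 0.46, Rfc4 0.69 and Rfc5 0.58. For polymerases and primase they were Pola1 0.80, Pola2 0.68, Prim1 0.43, Prim2 0.48, Pold1 0.67, Pold3 0.57, Pole 0.42 and Pole2 0.82. For Okazaki fragments it was Lig1 0.64. For RPA they were Rpa2 0.44, Rpa3 probe set 1 0.97 and Rpa3 probe set 2 1.27. For nucleotide supply they were Tyms 0.43, Tk1 probe set 1 0.79 and Tk1 probe set 2 0.72. For chromatin assembly factor 1 it was Chaf1a 0.72. For uracil removal it was Ung 0.36. For the E2F factor it was E2f1 0.50. No gene of the origin recognition complex is among them. Between mGC2_NES and mGC3_CNP, as mGC2_NES minus mGC3_CNP, the differences that passed were Pola1 -0.58, Rpa3 probe set 1 -0.75 and Rpa3 probe set 2 -1.04. Of the 35, 16 passed at adjusted p under 0.05 in each of the other fits on single probe sets and 19 did not pass in at least 1 of them.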

How the results depend on the processing

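Without 1 array at a time, called members ranged from 38 to 44 for tumour minus NSC, 12 to 21 for mGC1_GFAP minus NSC, 46 to 47 for mGC2_NES minus NSC, 28 to 40 for mGC3_CNP minus NSC, 17 to 38 for mGC1_GFAP minus mGC2_NES, 0 to 0 for mGC1_GFAP minus mGC3_CNP, 0 to 10 for mGC2_NES minus mGC3_CNP and 11 to 31 for any difference among tumour groups. A fit of 9 tumour against 3 NSC arrays as 2 groups called 26 members for tumour minus NSC, against 43. For mGC2_NES minus mGC3_CNP, 3 became 6 with array weights, with a second quantile scaling or with the replicate block, 5 in the 12-array fit or above the absent genes, and 0 at adjusted p under 0.01. Any difference among tumour groups called 18 with housekeeping centring and 7 at 0.01. At 0.01, mGC1_GFAP minus NSC called 11 and mGC1_GFAP minus mGC2_NES 15. The other alternatives moved no count by more than 1.5 times. Tumour arrays of the same replicate number correlated in their deviations from group means at 0.002 to 0.25, not all above 0.1, so the numbers were not taken as pairs of all 3 groups. The replicate block on the mGC2_NES and mGC3_CNP arrays only, added after seeing the data, called 1 for their difference. The replicate block on 9 arrays called 38 for mGC1_GFAP minus mGC2_NES, 0 for mGC1_GFAP minus mGC3_CNP and 29 for any difference. Of the differences for tumour minus NSC and for mGC1_GFAP minus mGC2_NES, signs turned only for those that did not pass. With housekeeping centring tumour minus NSC was 0.11 for Orc5 and 0.073 and 0.016 for the Rpa3 probe sets, and mGC1_GFAP minus mGC2_NES was -0.036 for Gins4, -0.023 for Orc2, -0.058 for Orc3, -0.11 for Orc5 and -0.056 for Orc6. With 1 array left out, tumour minus NSC ranged from -0.017 to 0.11 (Gins4), from -0.061 to 0.015 (Orc5), from -0.22 to 0.095 (Rpa3 probe set 1) and from -0.34 to 0.11 (Rpa3 probe set 2), and mGC1_GFAP minus mGC2_NES ranged from -0.11 to 0.025 (Orc4) and from -0.052 to 0.13 (Orc5). The cause of these changes was not tested.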
